A study of Mus musculus with 4 samples.

Results

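Hereditary deafness can begin in many cell types of the cochlea. A set of 35 further hereditary deafness genes, apart from those of potassium transport and gap junctions, was examined for expression in the stria vascularis (SV). They were taken by symbol from a fixed list of names, which was drawn up with earlier results of these data known. All 35 were found among the 27998 genes listed for the captures of cells and the 48816 listed for the capture of nuclei. The list holds the transcription and splicing regulators Eya4, Eya1, Gata3, Grhl2 and Esrp1. It holds 5 genes of junctions, proteases, the cell surface and solute transport (Tmprss3, Ildr1, Slc22a4, Serpinb6a and Cd164). A further 11 encode proteins of actin, myosin or the hair bundle (Actg1, Myh9, Myh14, Diaph1, Triobp, Clic5, Lhfpl5, Tprn, Gipc3, Homer2 and Smpx) and 6 encode mitochondrial proteins or proteins with a mitochondrial form (Timm8a1, Aifm1, Nars2, Pnpt1, Diablo and Msrb3). The remaining 8 have other roles in the endoplasmic reticulum, in metabolism, in vesicles or elsewhere (Wfs1, Crym, Prps1, Osbpl2, Ccdc50, Bdp1, Tbc1d24 and Dfnb59, which is now also called Pjvk).

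The SV was dissected from CBA/J mice at postnatal day 30, with no treatment or genotype given in the labels, so that cell types and not conditions were compared. Suspensions pooled from about 12 mice for cells and about 10 mice for nuclei, per the labels, gave 3 captures of whole cells and 1 capture of nuclei on a droplet platform. After filtering, 377, 1314 and 1461 cells and 9723 nuclei remained. Unique molecular identifiers (UMIs), which count captured transcripts, were summed for every type in each capture and are given as CPM, the count scaled to a fixed total of UMIs so that sums of different depth can be compared.

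The SV is the epithelium of the cochlear lateral wall that secretes potassium into the endolymph and keeps its electrical potential. Marginal cells face the endolymph, intermediate cells are melanocyte-derived, and basal cells close the tissue with tight junctions towards the fibrocytes of the lateral wall. Spindle and root cells border the strip of marginal cells and are known for Slc26a4, the pendrin anion exchanger. Many deafness genes act in hair cells, which are not part of the SV.

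Marker genes that took no part in the selection of the 35 genes named 136 marginal, 943 intermediate, 37 basal and 26 spindle/root cells, and 2587, 1473, 643 and 206 nuclei of the same types. Capture 1 held 4 spindle/root cells, under the minimum of 5, so that the spindle/root type had sums from captures 2 and 3 only. The naming limits were not met by 212, 766 and 856 cells of captures 1 to 3 and by 3931 nuclei, which stayed unnamed. Among these were a cluster of 382 cells with 7 marginal markers raised and clusters of 72 and 55 cells with 7 basal markers raised, which failed the limits on a second class or on the relative marker level, so that more cells with raised marginal and basal markers stayed unnamed than were named. Total UMIs per capture lay between 2811309 and 8340882 for cells and reached 22332501 for nuclei, with a median of 3878 to 5054 UMIs per cell and 1561 per nucleus. Kept cells had a median mitochondrial share of 38.6% to 45.4% and kept nuclei 8.23%. Cell captures shared 0 to 6 barcodes with each other and 7 to 32 with the nuclei. RNA of other types was present in the named types. The 10 intermediate markers together reached 27.6% of their own type's level in marginal cells, 13.4% in basal and 2.26% in spindle/root cells, with Pmel and Tyrp1 at 0 in the marginal and basal sums and Pmel at 0 in the intermediate cells too. The 10 marginal markers reached 24.3% of their own type's level in spindle/root cells, and the 7 basal markers 20.0% there and 28.2% in spindle/root nuclei, where 6 of the 7 were detected. In the nuclei the 10 marginal markers reached 26.9% of their own type's level in basal nuclei, with all 10 detected, and 20.1% in spindle/root nuclei, with 9 detected.

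The upstream windows of Ildr1, Tmprss3 and Slc22a4 are shown because these genes carry the epithelial pattern described for the cells. Each gives the 250 bases before the RefSeq start on GRCm38.p6, 5′ to 3′ on the gene's strand, with CG dinucleotides in capitals.
Ildr1, chr16:36693728-36693977, plus strand: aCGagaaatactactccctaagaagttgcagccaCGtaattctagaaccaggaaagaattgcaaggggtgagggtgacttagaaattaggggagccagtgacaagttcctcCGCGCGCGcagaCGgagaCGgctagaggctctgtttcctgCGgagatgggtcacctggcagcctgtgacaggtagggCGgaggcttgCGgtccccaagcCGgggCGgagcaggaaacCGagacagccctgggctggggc
Tmprss3, chr17:31198975-31199224, minus strand: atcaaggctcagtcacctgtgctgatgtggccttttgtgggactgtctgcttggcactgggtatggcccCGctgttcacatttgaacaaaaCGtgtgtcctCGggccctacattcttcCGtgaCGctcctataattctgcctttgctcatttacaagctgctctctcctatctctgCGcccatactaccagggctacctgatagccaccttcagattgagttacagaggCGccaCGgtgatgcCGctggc
Slc22a4, chr11:54028105-54028354, minus strand: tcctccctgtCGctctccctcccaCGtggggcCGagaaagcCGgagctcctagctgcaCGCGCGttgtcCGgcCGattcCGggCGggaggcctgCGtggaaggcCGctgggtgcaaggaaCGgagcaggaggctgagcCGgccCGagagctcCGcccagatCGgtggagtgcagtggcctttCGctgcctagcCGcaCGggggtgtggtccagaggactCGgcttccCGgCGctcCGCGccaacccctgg
Tmprss3 has a second window at chr17:31197750-31197999, not printed, with 4 CG dinucleotides (37.8% of all windows had fewer). The printed windows held 14, 9 and 26 CG dinucleotides, where the median of 32851 such windows was 6. Fewer CG dinucleotides than in the window were found in 70.6% of all windows for Ildr1, in 59.7% for Tmprss3 and in 90.4% for Slc22a4. The grainyhead motif AACCNGTT, searched on both strands, was found in 1.79% of all windows and among the members only in Prps1. The GATA motif AGATAA was found in 9.99% of all windows and among the members only in Smpx. Of the 35 genes, 30 had a window.

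Across all 35 genes, the levels fell into 3 kinds of pattern. A few genes were found mainly in the epithelial types, marginal and spindle/root (Gata3, Tmprss3, Ildr1, Esrp1, Grhl2 and Eya4, with Slc22a4 in marginal cells). Eya1 was highest in basal cells, and Tprn, Actg1, Myh9 and Ccdc50 were also higher in basal cells than in the mean of the other types. Of these, Actg1 had a higher mean in spindle/root than in basal cells (1617 against 1293 CPM). Ccdc50 had nearly the same mean in basal and intermediate cells (78.0 and 76.1 CPM), Myh9 was not detectably above spindle/root cells, and the Tprn call rested on capture 2. Most of the rest were detected in all 4 types or hardly at all.

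**Figure D1:**
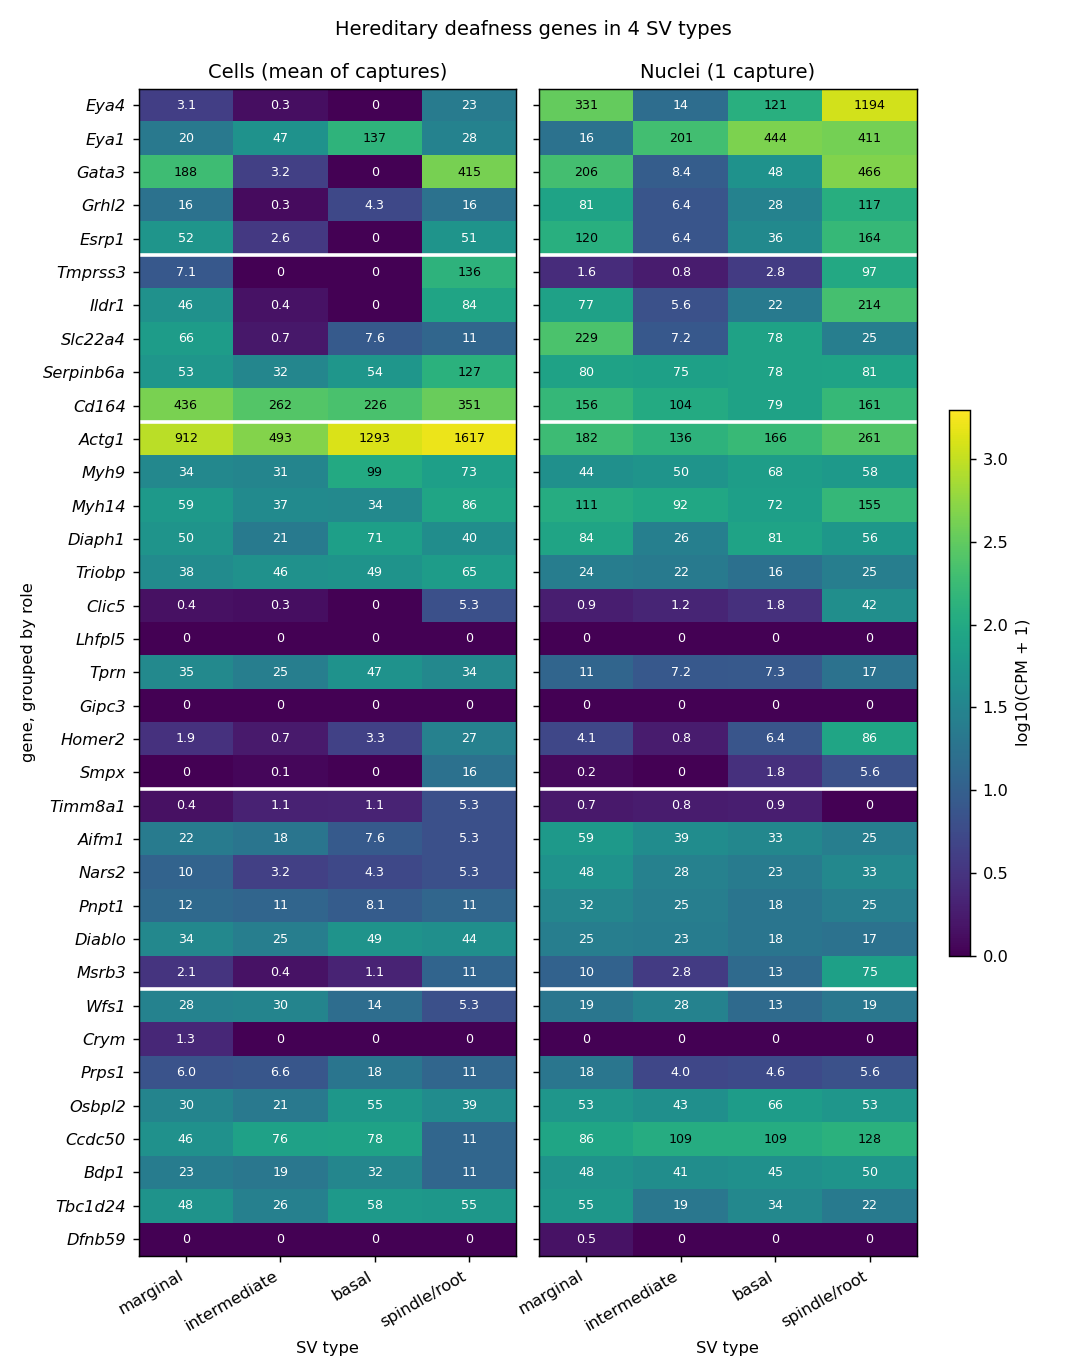
Levels of the 35 genes, grouped by role (rows), in the 4 SV types (columns) in cells (left, mean of the captures) and nuclei (right, 1 capture), coloured by log10(CPM + 1). Gata3, Ildr1 and Esrp1 are bright in marginal and spindle/root columns of both panels, Eya4 is bright in the nuclei only, and Lhfpl5 and Gipc3 are at 0 in all columns.

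Of the 35 genes, 18 passed the filter on low counts for a test across captures of cells, which asks for at least 33.1 CPM in at least 2 of the 11 sums. Tmprss3 passed through its 2 spindle/root sums alone and Slc22a4 through its 3 marginal sums alone. Their differences between types are thus in part set by the filter. Gata3, Esrp1 and Ildr1 passed through marginal and spindle/root sums alone, and the same holds for their differences from intermediate and basal cells. Among the other called members, Diaph1, Tbc1d24 and Tprn passed through no intermediate sum, Eya1 through no marginal and Ccdc50 through no spindle/root sum. Their differences from these types are likewise in part set by the filter. The counts over the 18 are therefore given as a description. The level of a type was set against the average of the remaining 3 types in a quasi-likelihood fit with edgeR. This average is one of log2 levels, and a type at 0 UMIs enters it with a value that the counts do not fix. At an adjusted p under 0.05, 6 of the 18 were higher in marginal cells, where 18.0% of all 5818 genes tested were higher. Intermediate cells had 1 member higher (19.4% of all genes), basal cells had 5 (16.6%) and spindle/root cells had 6 (14.0%). Lower levels were called for 2 members in marginal cells (11.6% of all genes), for 6 in intermediate (17.3%), for 4 in basal (12.2%) and for 1 in spindle/root cells (8.90%). Gata3, Esrp1, Ildr1 and Tmprss3, with 0 UMIs in basal cells, had SEs of 16.2 to 11459 in the intermediate contrast, which could not call them. Between pairs of types, each was lower in intermediate than in marginal cells, by log2 differences of 4.13 to 6.25. In basal cells Tmprss3 could not be called either (SE 15178). The median log2 fold change of the 18 members was -0.02 in marginal, -0.67 in intermediate, 0.24 in basal and 0.34 in spindle/root cells, against 0.07, 0.02, -0.01 and -0.06 over all genes tested. The medians of the members did not move when genes with a type at 0 UMIs were set to their bound. These genes lie towards the ends of the range of fold changes, so that this could not test the medians. Without TMM scaling the median of all genes moved by 0.08, -0.36, 0.06 and 0.23 in these types, and 25.8% in place of 52.8% of the genes called in intermediate cells were called higher, as were 74.8% in place of 61.1% in spindle/root cells. A single highest type, above each of the other 3, was called for 4 of the 18 members and for 22.5% of all genes. These were Gata3 and Tmprss3 in spindle/root cells, Slc22a4 in marginal cells and Eya1 in basal cells. The 17 genes that were not tested are described by their counts. Among them were Wfs1 with 233 UMIs, Bdp1 with 175 and Aifm1 with 148 in the cells of the 4 types, each with 1 sum above the limit.

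Among the regulators, Gata3, a zinc finger transcription factor of inner ear development (chr2:9857078-9890034 on mm10), was detected in the epithelial types. Marginal cells had 241, 139 and 185 CPM in captures 1 to 3, from 61, 113 and 87 UMIs, and spindle/root cells had 597 and 234 CPM in captures 2 and 3. Intermediate cells had 2.82, 3.46 and 3.22 CPM, and basal cells had 0 UMIs in every capture. All marginal and spindle/root values thus lay above all intermediate and basal values, whereas the range of the spindle/root values touched that of the marginal cells (234 CPM against 241). The mean of 188 ± 51.1 CPM (SD, n = 3) in marginal cells was above that of 3.17 ± 0.321 (SD, n = 3) in intermediate cells, by 5.35 ± 0.28 on the log2 scale (SE; adjusted p = 7.01e-27). Gata3 passed the filter through marginal and spindle/root sums alone, which in part sets this difference. Spindle/root cells, at 415 ± 257 CPM (SD, n = 2), were above marginal cells by 1.28 ± 0.27 (SE; adjusted p = 1.23e-04), but this log2 difference was 0.18 (adjusted p = 0.823) without capture 2 and 0.64 (adjusted p = 0.127) with clusters at a resolution of 0.4. Against basal cells, taken at a floor of 3 UMIs over the type, Gata3 was at least 27.0-fold higher in marginal and at least 67.3-fold higher in the spindle/root cells of captures 2 and 3. Nuclei had 206 CPM in marginal (95% Poisson interval 193 to 220), 466 in spindle/root (399 to 542), 47.7 in basal (35.6 to 62.5) and 8.39 in intermediate nuclei (5.20 to 12.8). These intervals, like all intervals given for nuclei, cover counting error only. Of the spindle/root clusters described below, only the one with Epyc lay above marginal cells and nuclei, at 908 CPM in cells and 754 in nuclei. The one with Anxa1 had 122 CPM in cells, below the marginal mean, and 122 (74.5 to 188) in nuclei, below marginal nuclei. Gata3 overlaps 2 genes on the opposite strand in GENCODE vM21, and the strand rule of the counting was not given in the sources used here.

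Esrp1, a splicing regulator of epithelial cells, was likewise found in the epithelial types, and no difference between marginal and spindle/root cells was detectable. It stood at 43.5, 51.7 and 61.7 CPM in marginal cells and at 42.6 and 58.4 CPM in spindle/root cells. Intermediate cells had 3.76, 2.30 and 1.61 CPM, and basal cells had 0 UMIs. The ranges of marginal and spindle/root cells overlapped, with a log2 difference of 0.21 ± 0.60 (SE; adjusted p = 0.835), and both lay above all intermediate values. The log2 difference of marginal over intermediate cells was 4.13 ± 0.42 (SE; adjusted p = 1.06e-17). It is in part set by the filter, which Esrp1 passed through marginal and spindle/root sums alone. Against the floor in basal cells Esrp1 was at least 8.49-fold higher in marginal and at least 7.97-fold higher in spindle/root cells. The call of spindle/root cells above the mean of the other types was lost without capture 2 (log2 fold change 3.93, adjusted p = 0.0739) and without capture 3 (3.61, adjusted p = 0.0780), and the call of lower levels in basal cells was lost without capture 2 (adjusted p = 0.160). In nuclei, Esrp1 had 120 CPM in marginal, 164 in spindle/root, 35.8 in basal and 6.40 in intermediate nuclei, a ratio of spindle/root over marginal nuclei of 1.36 (1.02 to 1.78), and 170 CPM (109 to 253) in the 98 nuclei named as Reissner's membrane, the thin sheet between the scalae.

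Grhl2, a grainyhead-like transcription factor of epithelia, and Eya4, a transcriptional coactivator and phosphatase, did not pass the filter in cells. Grhl2 had 33 UMIs in the 4 types, of which marginal cells held 6, 14 and 4 UMIs (23.7, 17.2 and 8.51 CPM) and spindle/root cells 2 and 1 in captures 2 and 3. In nuclei it had 444 UMIs, at 81.1 CPM (72.9 to 90.0) in marginal, 117 (84.0 to 158) in spindle/root, 28.4 in basal, 6.40 in intermediate and 177 (115 to 262) in Reissner's membrane nuclei. Both datasets thus placed Grhl2 mainly in the epithelial types. Eya4 had 11 UMIs in the cells of the 4 types but 2046 in the nuclei. Spindle/root nuclei held 1194 CPM of Eya4 (1084 to 1312), marginal nuclei 331 (314 to 348), basal nuclei 121 (101 to 144) and intermediate nuclei 14.0 (9.74 to 19.5), with 830 CPM in Reissner's membrane. Whether reads within introns were counted in the nuclei was not given in the sources used here.

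The values of these genes in basal nuclei moved with marginal RNA. The 10 marginal markers summed to 2805 CPM in basal nuclei and to 10446 in marginal nuclei, whereas basal cells held 3 to 5 of the 10 markers per capture and 43.1 to 85.4 CPM. When basal nuclei were taken from clusters built on 20 principal components, the marginal markers in them summed to 1432 CPM, and Gata3 fell from 47.7 to 21.2 CPM, Esrp1 from 35.8 to 10.6, Grhl2 from 28.4 to 17.7, Ildr1 from 22.0 to 9.42, Slc22a4 from 77.9 to 35.3 and Eya4 from 121 to 64.8. The part of marginal RNA in the levels of basal nuclei was not tested further.

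Eya1, a coactivator of the same family as Eya4 that is mutated in branchio-oto-renal syndrome (chr1:14168954-14310235 on mm10), had the opposite distribution in the cells. Basal cells had 104, 106 and 201 CPM from 11, 32 and 14 UMIs, intermediate cells 41.4, 42.2 and 57.2, marginal cells 11.9, 17.2 and 31.9, and spindle/root cells 21.3 and 35.1. The basal values lay above those of all other types in every capture, and marginal and spindle/root values overlapped. Basal cells were above intermediate cells by a log2 difference of 1.15 ± 0.25 (SE; adjusted p = 6.59e-05), above spindle/root cells by 2.42 ± 0.56 (adjusted p = 3.34e-04) and above marginal cells by 2.62 ± 0.33 (adjusted p = 4.31e-12). Eya1 passed the filter through no marginal sum, which in part sets its difference from marginal cells. Eya1 was the only member whose single highest type was called under each of the 14 alternative settings. In nuclei, basal nuclei again had the highest value with 444 CPM (405 to 485), but spindle/root nuclei had 411 (347 to 483), so that the ratio of 1.08 had an interval of 0.897 to 1.31 that includes 1. Of the spindle/root nuclei, the cluster with Epyc described below had 723 CPM (609 to 853), above the basal nuclei. The cluster with Anxa1 had 36.6 CPM (13.4 to 79.7). The part of the basal RNA in spindle/root nuclei, given above, in these values was not tested. Intermediate nuclei had 201 CPM and marginal nuclei 16.4. Fibrocyte nuclei held 232 CPM from 15 UMIs and Reissner's membrane nuclei 369 from 52.

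**Figure D2:**
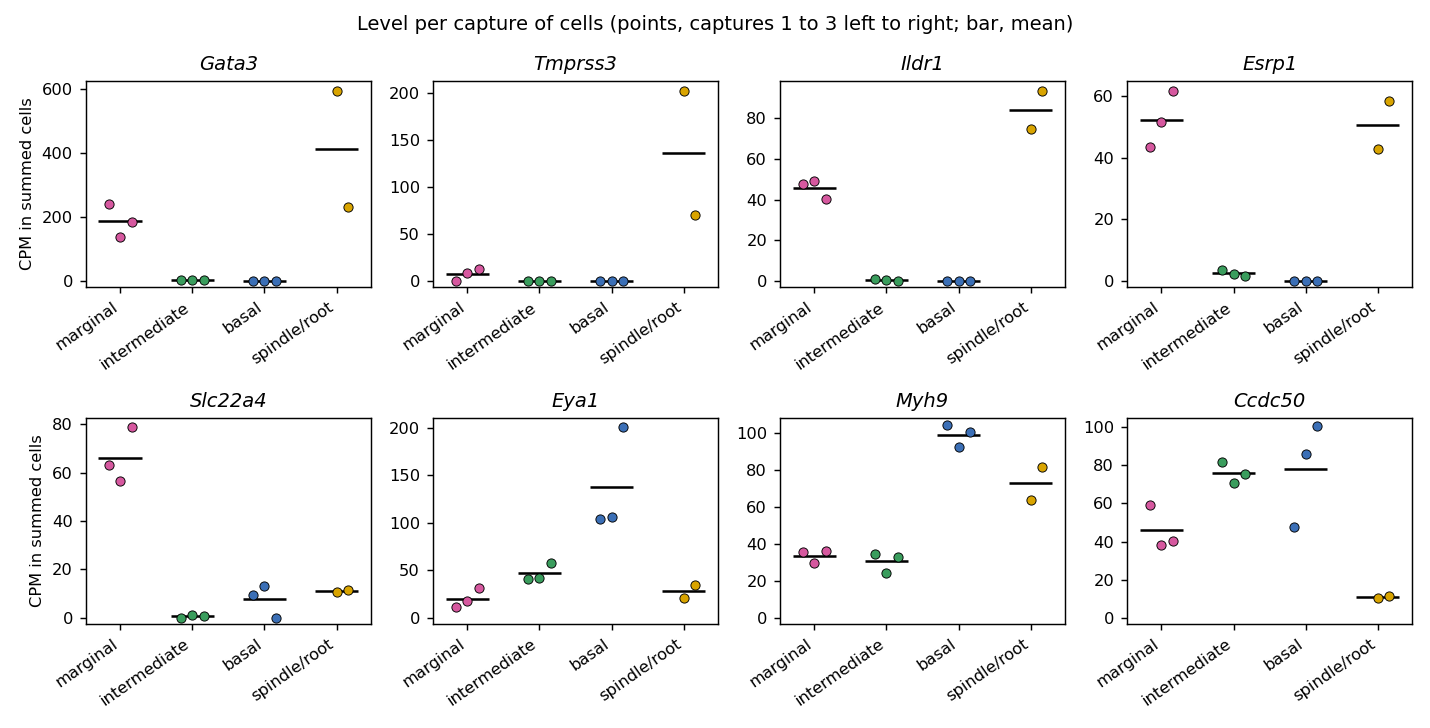
CPM per capture of cells (vertical axis) of 8 members in the 4 types (horizontal axis). Points are captures 1 to 3 from left to right, spindle/root having captures 2 and 3, and bars are means. Gata3, Tmprss3, Ildr1 and Esrp1 are near or at 0 in intermediate and basal cells, and Eya1 and Myh9 are highest in basal cells in every capture.

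The protease and junction genes followed the epithelial pattern. Tmprss3, a transmembrane serine protease (chr17:31179265-31198977), had 202 and 70.1 CPM in spindle/root cells from 19 and 6 UMIs, and 8 UMIs in the 4 spindle/root cells of capture 1. Marginal cells had 0, 8.61 and 12.8 CPM from 0, 7 and 6 UMIs, and intermediate and basal cells had none. Each spindle/root value was above each marginal value, by a log2 difference of 3.68 ± 0.64 (SE; adjusted p = 5.06e-07). As given above, the gene passed the filter through the spindle/root sums alone. Against the floors Tmprss3 was at least 286-fold higher in spindle/root than in intermediate cells and at least 22.1-fold higher than in basal cells. Without capture 2 Tmprss3 did not pass the filter, and with DESeq2 in place of edgeR the difference between spindle/root and marginal cells did not pass (adjusted p = 0.565). Marginal cells were called above the mean log2 level of the other types (adjusted p = 0.0362). Intermediate and basal cells, at 0 UMIs, entered that mean with values that the counts do not fix. In CPM the marginal mean of 7.12 lay far below that of 136 in spindle/root cells, so the call does not place Tmprss3 high in marginal cells. The call held in 5 of 13 alternative settings. It was lost without capture 3 (log2 fold change 1.88) and without the replicate block (2.34, adjusted p = 0.0555). In nuclei, Tmprss3 had 35 UMIs and 97.2 CPM (67.7 to 135) in spindle/root nuclei, 60.8 times the marginal level (26.6 to 162), and 2 to 7 UMIs in each of the other 3 types. B cell nuclei held 11 UMIs of Tmprss3 (26.2 CPM, 13.1 to 46.8) and B cells of the cell captures held 3 UMIs.

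Ildr1, a receptor of tricellular tight junctions (chr16:36693978-36726804), was found in both epithelial types. Marginal cells had 47.4, 49.2 and 40.4 CPM and spindle/root cells 74.6 and 93.5, while intermediate cells had 0.940, 0.384 and 0 and basal cells 0. Both spindle/root values lay above the marginal values, but the log2 difference of 0.81 ± 0.55 (SE; adjusted p = 0.298) did not pass the test. Marginal cells were above intermediate cells by 6.25 ± 0.59 (SE; adjusted p = 5.04e-20). This difference is in part set by the filter, which Ildr1 passed through marginal and spindle/root sums alone. Against the floor in basal cells Ildr1 was at least 7.35-fold higher in marginal and at least 13.3-fold higher in spindle/root cells, whereas its lower call in basal cells held in 8 of 14 alternative settings and was lost whichever capture was left out (adjusted p = 0.113, 0.347 and 0.050 without captures 1, 2 and 3). In nuclei the interval of spindle/root nuclei (214 CPM, 169 to 267) lay above that of marginal nuclei (77.0, 69.0 to 85.6), a ratio of 2.78 (2.14 to 3.57).

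Slc22a4, a carrier of organic cations and ergothioneine (chr11:53983123-54028090), was highest in marginal cells. The captures had 63.2, 56.6 and 78.7 CPM there from 16, 46 and 37 UMIs. Spindle/root cells had 10.7 and 11.7 CPM from 1 UMI each, basal cells 9.49, 13.2 and 0 from 5 UMIs in all, and intermediate cells 0, 1.15 and 0.805. No other type overlapped with the marginal cells, and the order of basal and spindle/root cells could not be told at these counts (log2 difference 0.12 ± 1.33, SE; adjusted p = 0.963). Slc22a4 passed the filter through the marginal sums alone, as given above. The log2 difference of marginal cells was 5.78 ± 0.47 over intermediate (adjusted p = 5.06e-25), 2.56 ± 0.61 over basal (adjusted p = 2.04e-04) and 2.69 ± 0.87 over spindle/root cells (adjusted p = 0.0127). The last of these was 2.86 (adjusted p = 0.140) without capture 2 and 2.58 (adjusted p = 0.192) without capture 3. Marginal nuclei had 229 CPM (215 to 244) against 77.9 in basal, 25.0 in spindle/root and 7.20 in intermediate nuclei. Erythroid cells of capture 3 held 10 UMIs (10.6 CPM) and erythroid nuclei 40 (15.1 CPM).

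Serpinb6a, an intracellular protease inhibitor, and Cd164, a sialomucin of the cell surface, were detected in every type. Serpinb6a had 149 and 105 CPM in spindle/root cells, 47.4, 52.9 and 59.6 in marginal, 57.0, 76.2 and 28.7 in basal and 33.9, 32.6 and 29.4 in intermediate cells. It was higher in spindle/root cells than in the mean of the other types by 1.22 ± 0.37 on the log2 scale (SE; adjusted p = 0.00882), which was lost without capture 2 (1.12, adjusted p = 0.245). Serpinb6a was also lower in intermediate cells than in the mean of the other types (-0.90 ± 0.21, SE; adjusted p = 1.16e-04). This lower call held in 13 of 14 alternative settings and was lost without capture 2 (-0.68). The nuclei did not separate the types, with 79.7, 74.7, 77.9 and 80.5 CPM in marginal, intermediate, basal and spindle/root nuclei. Serpinb6a has close relatives in its gene family and overlaps Nqo2 and Ripk1 on the opposite strand, so its reads may be shared. Cd164 had 308, 508 and 491 CPM in marginal cells, 239 to 280 in intermediate, 209 to 244 in basal, and 362 and 339 in spindle/root cells. Marginal cells exceeded the mean of the other types by 0.65 ± 0.13 (SE; adjusted p = 1.63e-05), and basal cells were below it at -0.68 ± 0.18 (SE; adjusted p = 0.00175), the latter lost without capture 2 (adjusted p = 0.147). In nuclei Cd164 had 156, 104, 78.9 and 161 CPM in marginal, intermediate, basal and spindle/root nuclei.

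**Figure D3:**
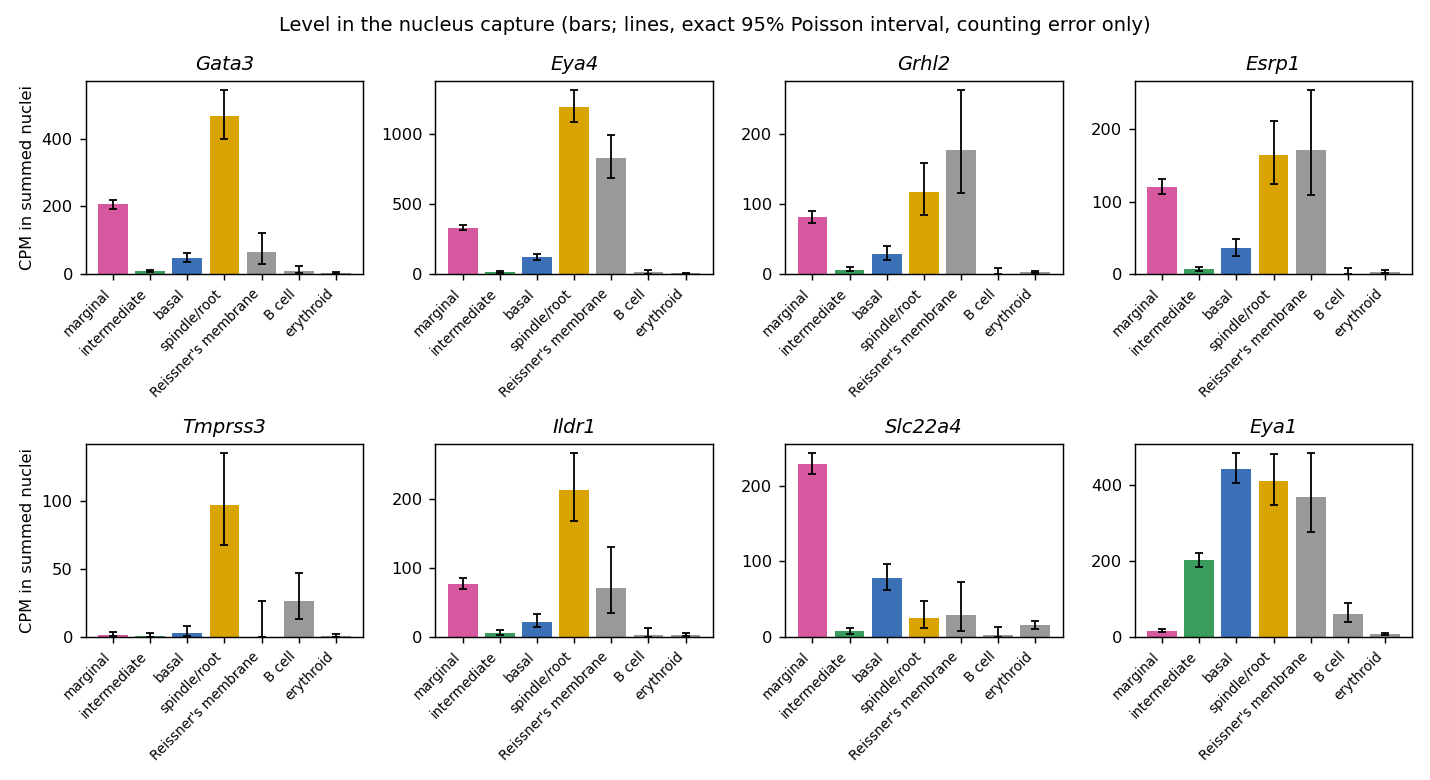
CPM in the nucleus capture (vertical axis) of 8 members in 7 types (horizontal axis), with exact 95% Poisson intervals that cover counting error only. Gata3, Eya4, Tmprss3 and Ildr1 are highest in spindle/root nuclei among the 4 SV types, Slc22a4 in marginal nuclei, and Eya1 is similar in basal and spindle/root nuclei.

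The cytoskeletal genes were broader. Actg1, gamma actin, had 1443, 1173 and 1264 CPM in basal cells, 1236 and 1998 in spindle/root, 925, 1012 and 798 in marginal and 564, 452 and 463 in intermediate cells. The intermediate values were the lowest in every capture, and spindle/root and basal ranges overlapped (log2 difference 0.29 ± 0.17, SE; adjusted p = 0.229). The fold change of intermediate cells against the other types was -1.0 ± 0.11 on the log2 scale (SE; adjusted p = 1.83e-14), and it kept its sign and its call in all 14 alternative settings. Higher levels in basal cells (0.42 ± 0.12, adjusted p = 0.00451) were lost without capture 1 (0.35, adjusted p = 0.122) and without capture 2 (0.34, adjusted p = 0.124), and those in spindle/root cells (0.80 ± 0.15, adjusted p = 2.07e-06) without capture 3 (0.38, adjusted p = 0.178). Actg1 was also abundant outside the SV types, at 2168 CPM in macrophages and 1958 in B cells of capture 3, and its reads may be shared with actin paralogs.

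Myh9, non-muscle myosin heavy chain IIA, had 104, 92.7 and 101 CPM in basal cells against 63.9 and 81.8 in spindle/root, 35.6, 29.5 and 36.2 in marginal and 34.8, 24.2 and 33.0 in intermediate cells. Basal cells were above marginal cells by a log2 difference of 1.60 ± 0.33 (SE; adjusted p = 1.50e-05) and above intermediate cells by 1.45 ± 0.29 (adjusted p = 7.53e-06), but not detectably above spindle/root cells (0.55 ± 0.47, adjusted p = 0.440). The basal call against the remaining types together was lost without capture 2 (1.02, adjusted p = 0.121), as was the lower call in marginal cells (adjusted p = 0.0740), and the lower call in intermediate cells was lost without capture 2 (adjusted p = 0.136) and without capture 3 (adjusted p = 0.0502). In nuclei Myh9 ranged from 44.1 CPM in marginal to 67.9 in basal nuclei (53.3 to 85.2), and neutrophil nuclei held 291.

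Tprn (taperin) and Diaph1 (a formin) were called in 1 type each. Tprn had 38.0, 89.4 and 14.4 CPM in basal cells, a range that covers those of the other types. Its higher call in basal cells (0.98 ± 0.37, SE; adjusted p = 0.0342) rested on capture 2, without which the fold change was -0.44 (adjusted p = 0.775). Diaph1 had 22.6, 21.9 and 19.7 CPM in intermediate cells against 63.2, 45.5 and 42.5 in marginal, 28.5, 56.3 and 129 in basal and 10.7 and 70.1 in spindle/root cells. Its fold change in intermediate cells was -0.85 ± 0.30 (SE; adjusted p = 0.0160), and -0.095 (adjusted p = 0.958) without capture 3. Diaph1 passed the filter through no intermediate sum, which in part sets this difference. Intermediate nuclei also had the lowest Diaph1 level, with 25.6 CPM (19.7 to 32.7) against 55.5 to 84.0 in the other 3 types. Myh14, another non-muscle myosin heavy chain, and Triobp, which bundles actin, had 345 and 381 UMIs in the cells of the 4 types and were called in no type against the mean of the others. Triobp was nevertheless higher in intermediate than in marginal cells (log2 difference 0.63 ± 0.23, SE; adjusted p = 0.0203). This call was lost without TMM scaling (0.30, adjusted p = 0.302), with DESeq2 (adjusted p = 0.156) and with the members among the variable genes (adjusted p = 0.222). It was also lost without capture 2 (0.59) and without capture 3 (0.56).

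Of the genes known from hair cells, Lhfpl5, Gipc3, Dfnb59 and Smpx were hardly detected in these data, whereas Tprn and Triobp had 242 and 381 UMIs in the cells of the 4 types. Lhfpl5, a subunit of the hair cell mechanotransduction channel complex, and Gipc3 had 0 UMIs in every type and in the unnamed cells and nuclei, which allows at most 0.488 CPM in intermediate and 12.2 CPM in spindle/root cells, taken as 3 UMIs over all cells of the type. Dfnb59 had 0 UMIs in cells and 2 in nuclei of the 4 types. Smpx, a small muscle protein linked to X-chromosomal deafness, had 4 and 5 UMIs, of which 3 and 2 were in spindle/root cells and nuclei. The 8 hair cell markers summed to 5 UMIs in the cells of the 4 types, all of them in intermediate cells, and to 10.1 to 22.2 CPM in the nuclei. As a reference, a list of 20 other hair bundle and hair cell deafness genes had 3 genes tested, a median of 2 UMIs in the cells of the 4 types and 7 genes at 0, whereas the 35 members had a median of 112 UMIs and 3 genes at 0. In the nuclei of the 4 types that list had a median of 49.5 UMIs and 0 genes at 0, against 333 UMIs and 3 genes at 0 for the members. Of a list of 18 deafness genes that the study placed in SV types on these same samples, and which is therefore not independent, 17 were tested and 17 had a single highest type. Eya4, which the study also names for marginal cells, is a member here, is not on that list and was not tested. Its level in the nuclei, as given above, was 331 CPM in marginal and 1194 CPM in spindle/root nuclei.

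Clic5, a chloride intracellular channel protein of the bundle base, and Homer2, a scaffold protein, were exceptions in the nuclei. Clic5 had 4 UMIs in the cells of the 4 types and 24 in the nuclei, of which 15 fell in the 206 spindle/root nuclei (41.6 CPM, 23.3 to 68.7) and 2 to 4 in each other type. Homer2 had 17 UMIs in the cells, with 4 and 1 in the spindle/root sums, and 58 in the nuclei, of which 31 were in spindle/root nuclei (86.1 CPM, 58.5 to 122), 20.9 times the marginal level (11.4 to 39.7). Msrb3, a methionine sulfoxide reductase, was also highest in spindle/root nuclei, with 9 UMIs in cells and 92 in nuclei, and 75.0 CPM (49.4 to 109) in spindle/root nuclei against 2.80 to 12.8 in the others.

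Counted by a rule chosen after the data were seen, 9 of the 29 members with at least 10 UMIs in the nuclei of the 4 types had at least 2 times the level of the second type. Over all 14828 such genes the share was 21.1%. Spindle/root nuclei held 7 of the 9, Gata3, Homer2, Eya4, Msrb3, Ildr1, Tmprss3 and Clic5, where 8.06% of all genes met the rule for this type. Marginal nuclei held Slc22a4 and Prps1 (5.33% of all genes), and no member met the rule in intermediate (4.40%) or basal nuclei (3.26%). The nuclei are 1 capture, so no test was made.

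The spindle/root class was made of a pair of clusters in both datasets, one carrying Epyc and Ceacam16 and one carrying Anxa1 and P2rx2, both with Slc26a4. The cluster with Epyc held 16 cells and 107 nuclei and the cluster with Anxa1 10 cells and 99 nuclei. Gata3 stood at 908 CPM (743 to 1100) in the Epyc cells and at 122 (70.0 to 199) in the Anxa1 cells, and at 754 (637 to 886) and 122 (74.5 to 188) in the nuclei. Eya1 had 723 CPM (609 to 853) in Epyc nuclei and 36.6 (13.4 to 79.7) in Anxa1 nuclei, but only 5 and 1 UMIs in the cells. Homer2 in Epyc nuclei (127 CPM, 82.4 to 188) was also above its level in Anxa1 nuclei (36.6, 13.4 to 79.7), and for Msrb3 (112 against 30.5 CPM) the intervals just overlapped. Eya4 (1106 against 1299 CPM), Ildr1 (229 against 195), Grhl2 (117 against 116), Esrp1 (153 against 177) and Tmprss3 (76.4 against 122) had overlapping intervals. In the other direction, Clic5 had 15.3 CPM from 3 UMIs in Epyc nuclei and 73.2 from 12 in Anxa1 nuclei, with overlapping intervals. In the cells, Actg1 had 1029 against 2097 CPM and Myh14 8.65 against 161 CPM in the Epyc and Anxa1 clusters, while in the nuclei Actg1 had 255 and 268. The clusters were built without the 35 genes, and their differences are given with counting intervals only and with no test.

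**Figure D4:**
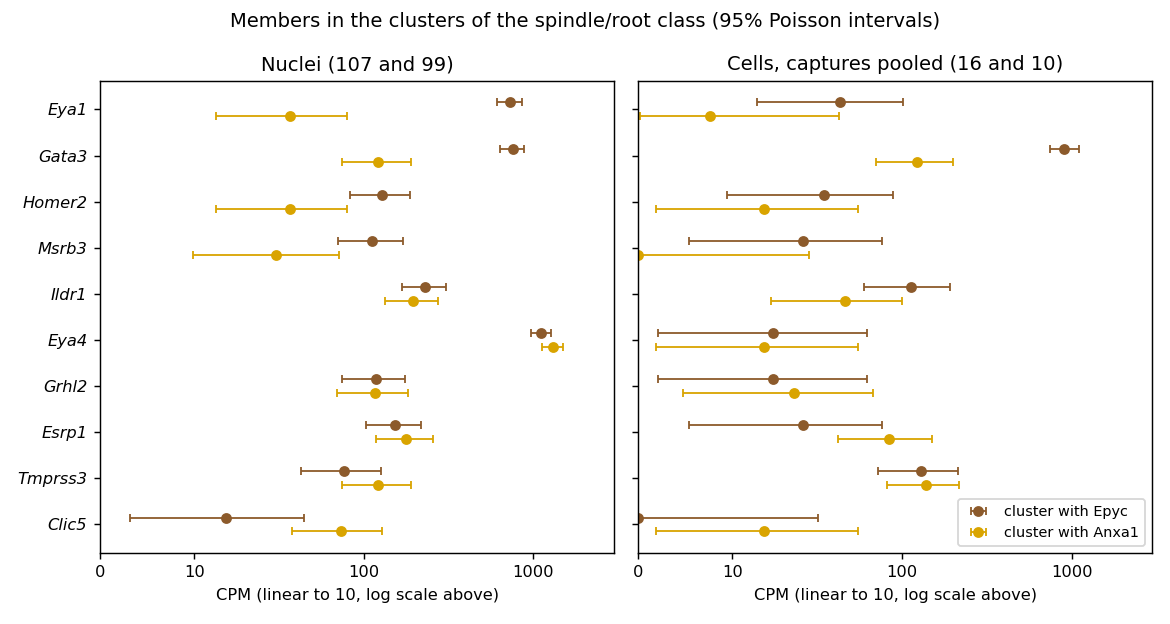
CPM (horizontal axis, linear to 10 and logarithmic above) of 10 members in the cluster with Epyc and the cluster with Anxa1 of the spindle/root class, in nuclei (left) and cells (right), with exact 95% Poisson intervals. Gata3 is higher in the Epyc cluster in both panels, at 908 and 122 CPM in cells and 754 and 122 CPM in nuclei.

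None of the mitochondrial genes was called in any type, where 1 of 6 could be tested. Diablo, an inhibitor of apoptosis inhibitors, had 230 UMIs in the cells and means of 33.8 ± 7.13, 25.2 ± 2.99, 49.3 ± 32.0 (SD, n = 3 each) and 43.6 ± 28.7 CPM (SD, n = 2) in marginal, intermediate, basal and spindle/root cells. Aifm1, an oxidoreductase that also acts in cell death, had 148 UMIs in the cells, at 39.5, 14.8 and 12.8 CPM in marginal and 16, 16.9 and 20.9 in intermediate cells. Marginal nuclei had 59.2 CPM of Aifm1 (52.2 to 66.8) against 38.8 in intermediate, 33.0 in basal and 25.0 in spindle/root nuclei. Nars2, the mitochondrial asparaginyl-tRNA synthetase, had 39 UMIs in cells and 314 in nuclei, with its highest value in marginal nuclei (47.5 CPM, 41.3 to 54.4). Its ratio of marginal over spindle/root nuclei (33.3 CPM) was 1.43, with an interval of 0.799 to 2.80 that includes 1. Pnpt1, a mitochondrial RNA exonuclease, ranged from 18.3 to 32.0 CPM in the nuclei with 88 UMIs in cells. Timm8a1, an inner membrane chaperone, had 10 and 6 UMIs and could be placed in no type.

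Of the other genes, Ccdc50, a ubiquitin-binding effector of receptor signalling, was the only member higher in intermediate cells. It had 81.8, 70.7 and 75.7 CPM there, 47.5, 86.1 and 101 in basal, 59.3, 38.1 and 40.4 in marginal, and 10.7 and 11.7 in spindle/root cells from 1 UMI each. Intermediate and basal ranges overlapped, and the sign of their difference changed with the scaling (log2 difference 0.21 ± 0.27, SE; adjusted p = 0.602, and -0.10 without TMM). The log2 fold change against the remaining types together was 1.48 ± 0.27 in intermediate cells (SE; adjusted p = 1.13e-06), and 1.2 ± 0.39 in basal cells (SE; adjusted p = 0.0116), the latter lost without capture 2 (0.82, adjusted p = 0.437) and without capture 3 (1.14, adjusted p = 0.0747). The lower call in spindle/root cells (-2.68 ± 0.74, adjusted p = 0.00316) was lost without capture 2 (adjusted p = 0.107) and without capture 3 (adjusted p = 0.0653). Ccdc50 passed the filter through no spindle/root sum, which in part sets this difference. The contrasts of intermediate and basal cells include their log2 differences over spindle/root cells, 3.12 and 2.91, which rest on 1 UMI in each spindle/root sum. Over marginal cells these log2 differences were 1.12 and 0.91. The nuclei held 86.1, 109, 109 and 128 CPM in marginal, intermediate, basal and spindle/root nuclei and did not show the low spindle/root level of the cells.

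Tbc1d24, a regulator of vesicle traffic, had 24.5, 25.0 and 29.8 CPM in intermediate cells against 63.2, 43.0 and 38.3 in marginal, 85.4, 46.4 and 43.1 in basal and 74.6 and 35.1 in spindle/root cells. The intermediate values were the lowest in every capture, but the call against the mean of the other types (-0.62 ± 0.26, SE; adjusted p = 0.0465) held in only 4 of 14 alternative settings and was lost without capture 1 (-0.42, adjusted p = 0.269), without capture 2 (-0.41, adjusted p = 0.550) and without the replicate block (-0.60, adjusted p = 0.0570). Tbc1d24 passed the filter through no intermediate sum, which in part sets this call. Marginal nuclei had 54.8 CPM (48.1 to 62.2) of Tbc1d24 against 19.2 to 33.9 in the other types. Osbpl2, an oxysterol-binding protein, was tested and called in no type, with 190 UMIs in cells and 42.8 to 66.0 CPM over the 4 types of nuclei. Wfs1, the wolframin of the endoplasmic reticulum, had 233 UMIs in cells, at 35.6, 28.3 and 21.3 CPM in marginal and 31.0, 28.8 and 30.2 in intermediate cells, and 12.8 to 28.0 CPM in nuclei, highest in intermediate nuclei (21.8 to 35.4). Bdp1, a subunit of the RNA polymerase III factor TFIIIB, had 175 UMIs in cells and 40.8 to 50.0 CPM in nuclei. Prps1, a phosphoribosyl pyrophosphate synthetase, had 63 UMIs in cells, where basal cells had the highest of the summed types in every capture, at 9.49, 16.6 and 28.7 CPM from 1, 5 and 2 UMIs. The other types lay between 3.95 and 11.7 CPM, and these levels were not tested. Its level in nuclei was 18.5 CPM (14.7 to 23.0) in marginal against 4.00 to 5.55 in the other types, the spindle/root value resting on 2 UMIs. Crym, mu-crystallin, had 1 UMI in the cells of the 4 types, in a marginal cell, and 0 in the nuclei, with 3 UMIs in unnamed nuclei.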

How the data were processed

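The data were 3 captures of single cells and 1 of single nuclei from the SV of P30 CBA/J mice. The authors aligned reads with Cell Ranger 2.0.0 to mm10, per the labels and the submitters' processing notes, and deposited raw counts of UMIs per gene and barcode, which were used without further normalization. Whether intron reads were counted in nuclei is not given in the sources used here.

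The 35 members, the marker lists and the reference lists were chosen with earlier results of these data known. Barcodes with under 200 genes were removed, and Scrublet in scanpy 1.11.5 (Python 3.11.15) removed a share of barcodes that grew with the capture (0.8% for each 1e3 barcodes), 1, 15, 20 and 978 barcodes. Cells and nuclei were clustered in Seurat 5.3.0 (R 4.3.3) on 2000 variable genes without the members, with the 41 and 42 of 50 principal components that had a JackStraw p under 1e-04 in 100 replicates, at a resolution of 0.8. Each class was scored by the mean log2 ratio of its markers against all other barcodes, with negative ratios set to 0. The highest score gave the name, from 111 markers in cells and 113 in nuclei of 16 classes. A name also needed at least 3 raised markers, a second score under 0.67 of the first and limits on the top genes. A minimum relative marker level was added after the clusters, and before any member's value, had been seen. Cells are not replicates, so UMIs were summed per capture and type of at least 5 cells, which gave 11 sums.

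The sums were fitted in edgeR 4.0.16 (quasi-likelihood test, TMM, filterByExpr, capture as replicate block), with Benjamini-Hochberg adjustment over all 5818 genes at 0.05. Types within a capture share a suspension and are therefore paired, and the correlations of 15 pairs over 4305 genes lay between 0.0095 and 0.238. On simulated sums edgeR recovered 93 of 93 tested genes changed 4-fold and 60 of 94 changed 2-fold, with 7 false calls among 5818 genes. All genes were simulated with the same fixed spread, the same mean profile in every type and no capture effect. Changes were upward in marginal sums only, and false calls were counted in the marginal contrast only. Recovery was not tested for the other types, so these counts do not give it for basal or spindle/root cells. Nor do they give it for genes whose real sums vary more or hold 0 UMIs. DESeq2 1.42.0 was an alternative. Nuclei have exact 95% Poisson intervals (scipy 1.17.1), which cover counting error only, and no test. Members were described in full where a type was called, where 1 type was highest or where the nuclei went against the cells, and otherwise by counts and ranges. Depth per capture is given above. Positions come from GENCODE vM21 and upstream sequences from RefSeq on GRCm38.p6. The alternatives were other tests, scalings, filters, clusterings and each capture left out. Leaving out 1 cluster from the basal nuclei was added after the data were seen.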

Additional observations from a re-analysis of the deposited data

Results flagged for a closer look

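In 4 comparisons a member was higher in 1 type in every capture of cells, past the test, and lower in the same type in the nuclei. The difference between cells and nuclei was not tested, since the nuclei are 1 capture. Triobp was higher in intermediate than in marginal cells, whereas marginal nuclei had 1.09 times the level of intermediate nuclei (counting interval 0.780 to 1.54). Without TMM scaling the Triobp call in cells was lost (log2 difference 0.30, adjusted p = 0.302). Actg1 was higher in basal than in marginal cells by a log2 difference of 0.48 ± 0.14 (SE; adjusted p = 0.00364), whereas marginal nuclei had 1.09 times the level of basal nuclei (0.930 to 1.29). Ccdc50 was higher in intermediate than in spindle/root cells by 3.12 ± 0.70 (SE; adjusted p = 9.51e-05) and higher in basal than in spindle/root cells by 2.91 ± 0.79 (SE; adjusted p = 0.00256), whereas spindle/root nuclei had 1.17 times the level of intermediate (0.840 to 1.61) and 1.17 times that of basal nuclei (0.814 to 1.66). All 4 intervals of the nuclei include 1, and the spindle/root cells held 2 UMIs of Ccdc50 in the sums. Ccdc50 passed the filter through no spindle/root sum, which in part sets its differences in the cells. The Actg1 call between basal and marginal cells was lost without capture 1 (log2 difference 0.35, adjusted p = 0.197), and the Ccdc50 call between basal and spindle/root cells without capture 2 (2.55, adjusted p = 0.184) and without capture 3 (2.87, adjusted p = 0.0544).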

How the results depend on the processing

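Under the 14 alternatives, 110 counts of members stayed within 1.5 times the reported count and 16 did not. With DESeq2, 2 members were higher in basal cells, 0 were lower in spindle/root cells and 1 (Eya1) had a single highest type. Over all 5818 genes DESeq2 called 794, 250 and 923 in these ways, against 964, 518 and 1309 with edgeR. Without a filter on low counts, where 32 members were tested, 4 were higher in intermediate cells and 3 in basal cells (1949 and 944 of all 15276 genes). With the members among the variable genes or with doublets kept, 2 were higher in intermediate cells (994 of all 4785 and 1196 of all 6535 genes). With at least 10 cells per sum, only the basal sum of capture 2 was left for that type, so no count is given for that setting. The fit with no replicate block moved no count by over 1.5 times and gave 5 members higher in marginal, 1 in intermediate, 5 in basal and 6 in spindle/root cells, the calls of Tbc1d24 in intermediate and Tmprss3 in marginal cells being lost without the block and no other. Over all 5818 genes that fit called 1027, 1062, 932 and 787 higher in these types. Leaving out 1 capture in turn gave 5 to 6 members higher in marginal, 1 to 2 in intermediate, 1 to 5 in basal and 3 to 6 in spindle/root cells, 2 to 2 lower in marginal, 3 to 5 in intermediate, 1 to 3 in basal and 0 to 1 in spindle/root cells, and 1 to 5 members with a single highest type. Without capture 2 or without capture 3 the spindle/root cells had 1 sum, assumed to vary like the others. Fewer genes were also called over all genes in both of these fits, so the ranges are not a result about the members. Without capture 1, 19 members were tested, and 6, 2, 5 and 6 were higher in marginal, intermediate, basal and spindle/root cells. Over all 6425 genes tested in that fit, 992, 1135, 893 and 798 were.

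Over the same alternatives, 374 contrasts against the mean of the other types kept their direction and their side of the threshold, 57 lost the threshold and 1 reversed. Of the pairwise contrasts 675 kept both, 50 lost and 7 gained the threshold and 6 reversed. Those that reversed were Tprn without capture 2 (range over captures left out -0.44 to 1.39 in basal cells, -1.24 to 0.20 for intermediate over basal and -1.22 to 0.23 for marginal over basal cells), Ccdc50 for intermediate over basal cells with at least 10 cells per sum (-0.046) and without TMM (-0.10), Esrp1 for marginal over spindle/root cells with doublets kept (-0.040) and Actg1 for basal over spindle/root cells without capture 3 (range -0.62 to 0.11). The cause was not tested. In nuclei, 446 levels stayed within their intervals and 9 moved, all in basal nuclei with 20 principal components. These include Eya1 (495 CPM), Aifm1 (21.2 CPM) and Tbc1d24 (23.6 CPM), beside the 6 given in the report. A single highest type was kept by Eya1 in all 14 alternatives, lost for Gata3 with DESeq2, with members among the variable genes, at a resolution of 0.4 and without capture 2, for Slc22a4 with DESeq2 and without capture 2 or 3, and for Tmprss3 with DESeq2 and without capture 2, where it was not tested. The filter on low counts leaves 17 members untested, and the 26 spindle/root cells limit every contrast with that type.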
